A study of Homo sapiens with 4 samples.

Results

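C15orf48 (also called NMES1) and its paralogs NDUFA4 and NDUFA4L2 are 3 of the 56655 gene symbols counted by RNA sequencing in OVCAR5, an established human ovarian cancer cell line. The 3 genes were chosen by name as a protein family, with the results of this same comparison already known, so their differences between the groups are given as a description and without a test. Control cells carried a nontargeting short hairpin RNA in the vector pLKO.1-puro (shCtrl, 2 libraries), and the others carried a hairpin directed at FOXK2, a forkhead transcription factor gene (shFOXK2, 2 libraries). Cells cut such a hairpin into a short guide RNA, through which transcripts of the targeted gene are broken down. Both groups were transduced with lentivirus, selected with puromycin as stable lines and grown in RPMI medium with 10% serum, and the labels give the line's source as ascites, its tumor as high grade serous and its passage as 4-6. The study's methods call its replicates biological, but neither they nor the labels say whether the 2 libraries of a group came from separate transductions or cultures, so p-values measure only the spread between these libraries, part of which may be technical.

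Complex IV, cytochrome c oxidase, is the last enzyme of the mitochondrial respiratory chain and passes electrons to oxygen. NDUFA4 was named as a subunit of complex I but is a small nuclear-encoded subunit of complex IV. C15orf48 encodes a protein of the same family that inflammatory signals induce and that can take the place of NDUFA4 in complex IV, and its transcript also carries the hairpin of the microRNA miR-147b. NDUFA4L2 encodes a further protein of this family and is known as a gene that hypoxia-inducible factors (HIF) switch on.

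The microRNA within C15orf48 and the match to its seed in NDUFA4 are shown first, because they concern both members. In hg38 (RefSeq, GRCh38.p14) the miR-147b hairpin lies at chr15:45433050-45433129 on the + strand, within an exon and after the coding part in 2 of the 4 annotated C15orf48 transcripts, the canonical transcript among them. The mature strand lies at chr15:45433098-45433118, and its seed, bases 2 to 8, is in capitals. The canonical NDUFA4 transcript holds 1 match to all 7 seed bases (CCGCACA, in capitals in the second line), 56 bases after the stop codon. The whole printed stretch around the match lies at chr7:10933573-10933595 on the - strand.
hsa-miR-147b-3p: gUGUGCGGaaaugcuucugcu
NDUFA4 seed match: ttccagaagccacatCCGCACAa
The canonical transcripts of C15orf48 and NDUFA4L2 hold no such match. A match of these 7 bases occurs in 8.29% of 20046 protein-coding canonical transcripts and in 6.5% of the 1862 within 200 bases of the NDUFA4 transcript's length. A match is a description of letters and not a measured site. The row for MIR147B, the gene of the hairpin, held 0 counts in all 4 libraries. All 80 bases of the hairpin lie within an exon of C15orf48 on the same strand, and HTSeq in its usual setting counts reads shared by overlapping genes for neither, so the 0 sets no limit on RNA from this place. Mature microRNAs have no poly(A) tail and were not measured by these libraries.

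C15orf48 spans chr15:45430579-45448761 on the + strand, with a canonical transcript of 649 bases in 5 exons. The 250 bases before its RefSeq start, at chr15:45430360-45430609 (+ strand, GRCh38.p14), are shown because C15orf48 had the larger difference of the 2 members that could be fitted. Capitals mark the hypoxia core CACGT, which begins 175 bases before the start, and TATATAA, which begins 30 bases before it. The RefSeq start lies inside the gene span given above, which begins earlier. The last bases of the window, TATATAA among them, therefore fall within that span.
C15orf48 promoter: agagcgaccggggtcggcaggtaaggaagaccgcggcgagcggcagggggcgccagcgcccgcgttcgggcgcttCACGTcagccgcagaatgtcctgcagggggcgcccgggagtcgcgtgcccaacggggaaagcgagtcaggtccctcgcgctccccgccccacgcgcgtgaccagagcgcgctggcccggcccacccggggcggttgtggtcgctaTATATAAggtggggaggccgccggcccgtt
Both strands were searched for 4 motifs. The hypoxia core (ACGTG or CACGT) occurs in 18.5% of 35116 promoters of the same length and the TATA letters (TATATAA) in 2.42%. The C15orf48 window held neither the forkhead core TGTTTAC, found in 2.98% of promoters, nor an NF-kB motif, found in 5.21%. The NDUFA4 window and both NDUFA4L2 windows held none of the 4 motifs as spelled here. The letters GCGTG, which differ from ACGTG in the first base, were not searched. They stand in the C15orf48 window and in both NDUFA4L2 windows. That the letters of a motif are missing from a short window says nothing about where a factor binds. The C15orf48 window was the richest of these in G and C, at 73.6%, against 51.6% for NDUFA4 and 60.8% and 60.0% for the 2 starts of NDUFA4L2.

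Library totals ran from 14284005 to 21950873 counts, and 16417 genes passed the filter on low counts. FOXK2 itself, at chr17:82519713-82644662, had 1796 and 1499 counts with the control hairpin and 1086 and 1084 with the FOXK2 hairpin. In CPM, which are read counts scaled to a common library total, its level was 86.9 ± 9.10 (SD, n = 2) in shCtrl and 67.9 ± 11.9 CPM in shFOXK2, with no overlap between the groups, and the log2 fold change was -0.36 (SE 0.25; edgeR, adjusted p = 0.257). This did not pass the test. Groups that stood apart in this direction, with the shFOXK2 pair lower, were found for 36.2% of all tested genes. The log2 fold change of FOXK2 ran from -0.55 to -0.23 with 1 library left out. It was -0.036 with an offset on the A content of transcripts and -0.068 with one on GC content. A knockdown of the transcript was therefore not shown by these libraries alone. The paper reports, from separate assays, lower FOXK2 mRNA by qRT-PCR and lower protein by Western blot in OVCAR5 cells with FOXK2 hairpins. Library totals were first adjusted by the trimmed mean of M values (TMM). Of the 16417 genes, 7940 (48.4%) had an adjusted p under 0.05, 22.7% lower and 25.7% higher in shFOXK2, and the median log2 fold change was 0.04. Calls were therefore common in these data, and counts of calls in a list are read against these shares.

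C15orf48 was well expressed in shCtrl cells and almost absent from shFOXK2 cells. Its counts were 1527 and 1372 with the control hairpin against 3 and 0 with the FOXK2 hairpin. These are 68.4 CPM (95% Poisson interval 65.1 to 72.0) and 85.5 CPM (81.0 to 90.1) against 0.211 CPM (0.043 to 0.616) and 0 CPM (0 to 0.203). The groups were far apart, and the shFOXK2 libraries lay at or under the floor of 3 counts (0.211 and 0.165 CPM). Intervals and floors cover counting error only, because PCR copies of a molecule could not be told from separate molecules. Group means were 77.0 ± 12.04 CPM in shCtrl and 0.105 ± 0.149 CPM in shFOXK2.

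Summed over libraries, the C15orf48 level was 817 times higher in shCtrl than in shFOXK2, from 2899 against 3 counts, with an exact 95% counting interval of 279 to 3963. With the shFOXK2 library of 3 counts alone the ratio was 358 (122 to 1739), and with the library of 0 counts alone it was at least 459, set against 3 counts in that library. The fitted log2 fold change was -9.58 (SE 0.56). Its size depends on how 0 counts are treated. It was -8.65 as a difference of mean log2 CPM with a prior count of 2, -8.50 without shFOXK2 replicate 2 and -13.50 without shFOXK2 replicate 1, which leaves 0 counts in the group. In the fit, C15orf48 had the third most negative value of the 16417 genes. RNA came from whole cultures, so fewer cells expressing the gene and less RNA per cell cannot be told apart.

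NDUFA4 was the most abundant of the 3 in every library and lower in shFOXK2 than in shCtrl. It spans chr7:10931943-10940153 on the - strand, with a canonical transcript of 2035 bases in 4 exons. The shCtrl libraries held 6327 and 6260 counts (284 and 390 CPM), compared with 2481 and 3231 (174 and 177 CPM) for shFOXK2. The shFOXK2 libraries nearly coincided, the shCtrl libraries differed by more, and the groups did not overlap. Such an order, with the shFOXK2 pair lower, was found in 36.2% of all tested genes. Means were 337 ± 75.2 CPM and 176 ± 2.18 CPM (SD, n = 2), which puts shFOXK2 at 52.2% of shCtrl.

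The fitted log2 fold change of NDUFA4 was -0.94 (SE 0.24), and 19.0% of tested genes had a value at or below it. The value moved with the base composition of transcripts. NDUFA4 is 39.4% G and C, and the 1184 tested genes within 1 percentage point of this had a median log2 fold change of 0.49 (middle range -0.24 to 1.21), with 9.29% of them more negative than NDUFA4. With a smooth offset on GC content the NDUFA4 value was -1.55, or -1.62 relative to the median of all genes. Genes of like A content (28.3%) had a median of -0.03, and an offset on A content left NDUFA4 at -0.92. The part of composition in these values was not tested further.

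NDUFA4L2 was close to undetected in both groups. It spans chr12:57234903-57240715 on the - strand and its canonical transcript has 943 bases in 4 exons. The shCtrl libraries held 1 and 7 counts (0.045 and 0.436 CPM) and the shFOXK2 libraries 3 and 4 (0.211 and 0.220 CPM). The shCtrl values lay on either side of the shFOXK2 values, so the groups overlapped, and the gene did not pass the filter on low counts. Means were 0.240 ± 0.277 CPM in shCtrl and 0.215 ± 0.006 CPM in shFOXK2, and the difference of mean log2 CPM was 0.16, less than the pooled SD of 0.90. A difference between the groups was not detectable at this depth. The gene's end shares 33 exon bases with SHMT2 on the opposite strand. Whether reads were counted by strand is not given in the sources used here, so reads from these 33 bases cannot be assigned to one of the pair.

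**Figure D1:**
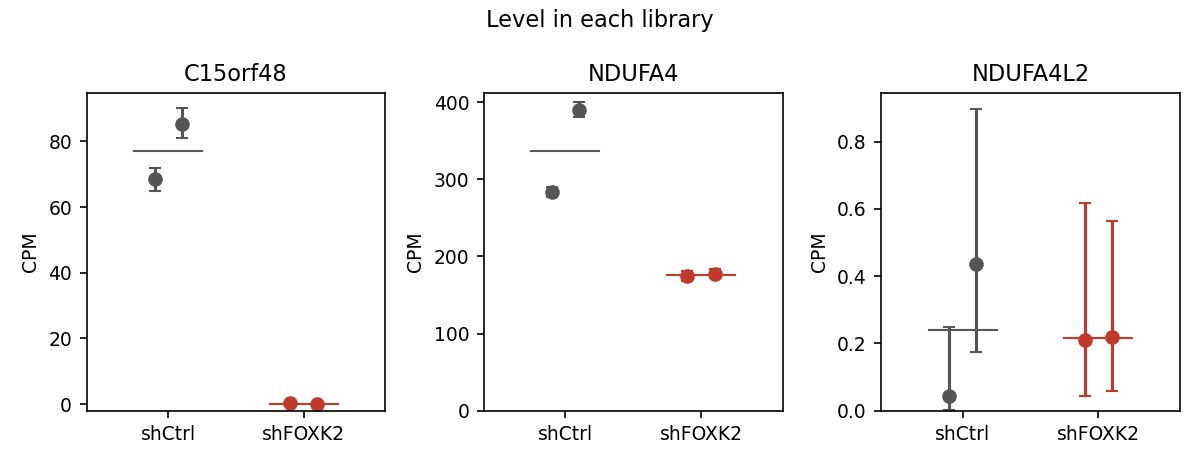
Level of C15orf48, NDUFA4 and NDUFA4L2 in CPM (vertical axis, a separate scale for each gene) in the shCtrl (grey) and shFOXK2 (red) libraries. Points are libraries, bars are 95% Poisson counting intervals and lines are group means: C15orf48 drops from 77.0 to 0.105 CPM, NDUFA4 from 337 to 176 CPM, and the NDUFA4L2 libraries overlap below 0.5 CPM.

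Reads shared among the paralogs were looked for. Windows of 50 bases, the read length, were taken along each canonical transcript and looked up in hg38. Of 600 windows of C15orf48, 1986 of NDUFA4 and 894 of NDUFA4L2, 0 were found at another place. The pseudogene NDUFA4P2 had 0 counts in all 4 libraries. C15orf48 overlaps 3 annotated genes: MIR147B within it, the long noncoding RNA ENSG00000259342 on the opposite strand (49 bases shared with the canonical transcript) and SLC30A4-AS1 on the same strand (213 bases shared with other transcripts and 0 with the canonical one). The values of the pair of noncoding RNAs were not analysed here.

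Levels of different genes were compared per kilobase of canonical transcript. As said of MIR147B, reads that touch the 80 hairpin bases may be missing from the C15orf48 counts. The level of C15orf48 per kilobase, its share and its rank may therefore be too low, and no correction was made. In shCtrl cells C15orf48 stood at 119 ± 18.5 CPM per kilobase and NDUFA4 at 165 ± 37.0 (SD, n = 2), and NDUFA4 was higher than C15orf48 by 1.32 and 1.46 times in the 2 libraries. In shFOXK2 cells C15orf48 stood at 0.162 ± 0.230, NDUFA4 at 86.5 ± 1.07 and NDUFA4L2 at 0.228 ± 0.007 CPM per kilobase, and the counting intervals of C15orf48 and NDUFA4L2 overlapped in both libraries. NDUFA4L2 stood at 0.255 ± 0.293 CPM per kilobase in shCtrl.

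C15orf48 made up 43.1% and 40.7% of the summed level of the 3 genes under shCtrl, but 0.377% and 0% under shFOXK2. NDUFA4 made up 56.9% and 59.2%, and then 99.4% and 99.7%. The share of C15orf48 in shCtrl was 41.9 ± 1.69% per canonical transcript and 37.0 ± 1.61% with the summed length of all annotated exons. The summed level of the 3 genes was 284 ± 55.8 CPM per kilobase in shCtrl and 86.9 ± 0.848 in shFOXK2. In the libraries where C15orf48 was nearly absent, NDUFA4 was lower as well.

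**Figure D2:**
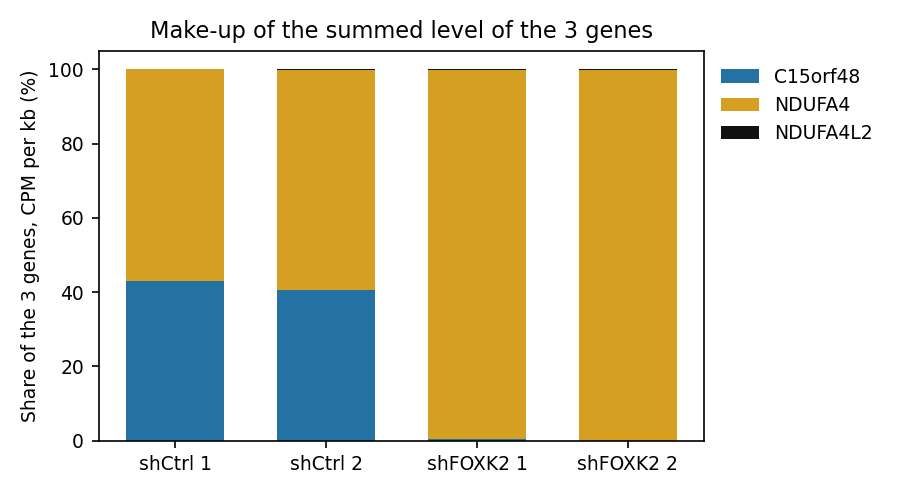
Share of C15orf48, NDUFA4 and NDUFA4L2 in their summed level (vertical axis, % of CPM per kilobase of canonical transcript) in each library. C15orf48 holds 43.1% and 40.7% in shCtrl and 0.377% and 0% in shFOXK2, and NDUFA4L2 holds at most 0.266%.

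NDUFA4 was then set beside the other subunits of complex IV. Of 16 other nuclear-encoded subunits 10 passed the filter, and 9 of these did not pass the test. In shFOXK2, 1 was called higher and 0 lower, against 25.7% and 22.7% of all tested genes. The median of the 10 subunits ran from -0.43 to 0.02 with 1 library left out, so its direction rests on single libraries. At an unadjusted p under 0.05, and with the DESeq2 Wald test, 0 were lower as well. Their median log2 fold change was -0.18, against 0.04 over all tested genes. COX6C, a small subunit of the enzyme, rose by 0.83 on the log2 scale (SE 0.27, edgeR adjusted p = 0.0232), from 81.1 to 144 CPM. This call was lost with the GC offset (0.37) and without shCtrl replicate 1 (0.62) or shFOXK2 replicate 2 (0.41), and without shCtrl replicate 1 instead 2 subunits were called lower.

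NDUFA4 had the most negative log2 fold change of these 11 genes, -0.94 (SE 0.24), followed by COX6A1 at -0.52 (SE 0.27), COX5B at -0.51 (SE 0.26) and COX7A2 at -0.38 (SE 0.25). These 3 did not pass the test, and their SEs are larger than the gaps between them. COX4I1, the subunit with the highest level among the nuclear-encoded ones, had -0.34 (SE 0.24). The difference between NDUFA4 and the other subunits was not tested, because NDUFA4 was chosen with its value known.

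**Figure D3:**
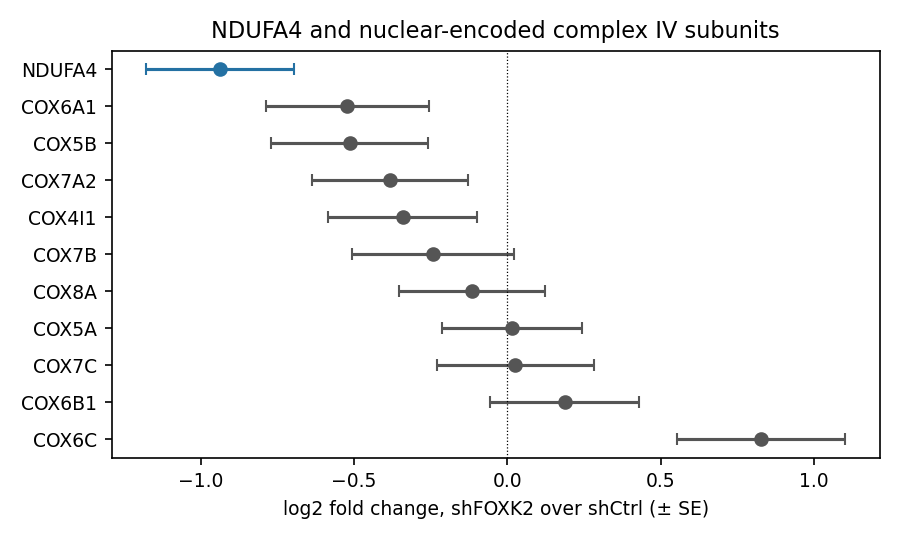
Log2 fold change of NDUFA4 (blue) and 10 other nuclear-encoded complex IV subunits (grey), shFOXK2 over shCtrl, with bars of 1 SE. NDUFA4 lies lowest at -0.94 and COX6C highest at 0.83, with the other 9 between -0.52 and 0.19.

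Per kilobase in shCtrl, NDUFA4 ranked 10th and C15orf48 12th of 22 genes made of the family and the complex IV subunits. COX5A, a nuclear-encoded subunit, lay between them at 137 ± 15.8 CPM per kilobase, and COX6C followed at 109 ± 18.6. The libraries of COX5A overlapped those of both NDUFA4 and C15orf48, and the libraries of C15orf48 overlapped those of COX6C, so each of these neighbours lay within the spread of the next across libraries. Within each of the 2 shCtrl libraries the order was the same: NDUFA4, COX5A, C15orf48 and COX6C. The place of C15orf48 in this order is uncertain, because reads at the hairpin may be missing from its counts. COX7C, next above NDUFA4 at 276 ± 42.8, did not overlap it. In shFOXK2, NDUFA4 ranked 12th and C15orf48 18th, among subunits known from other tissues such as COX7A1 and COX6B2, which had 1.38 and 0.513 CPM per kilobase.

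**Figure D4:**
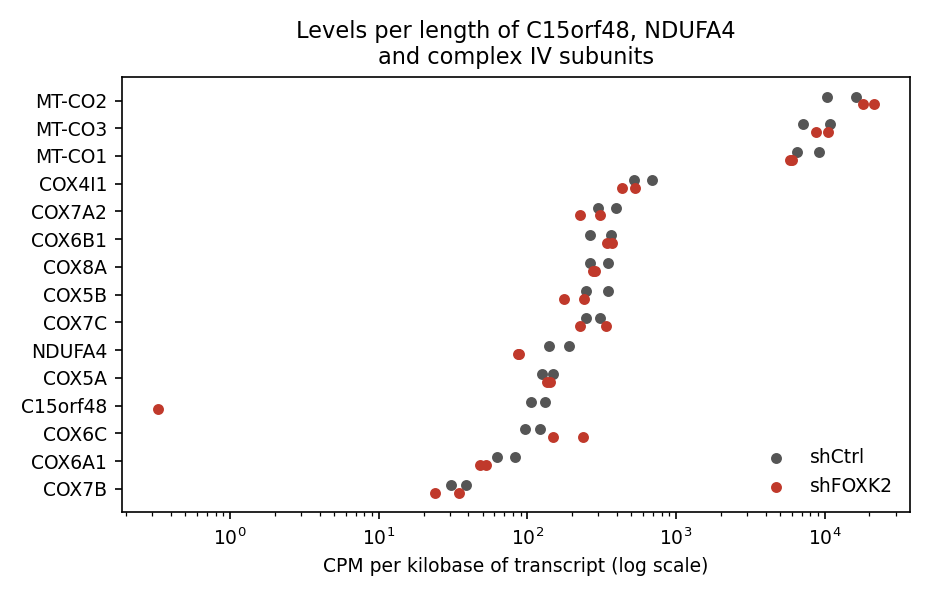
Level in CPM per kilobase of canonical transcript (horizontal axis, log scale) of the genes above 10 in shCtrl, with each library as a point (shCtrl grey, shFOXK2 red). C15orf48 lies among the nuclear-encoded subunits in shCtrl and at 0.325 in 1 shFOXK2 library, and the other, with 0 counts, cannot be drawn on a log axis.

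The 3 mitochondrially encoded core subunits did not pass the edgeR test in either direction, nor did any at an unadjusted p under 0.05 or with DESeq2, and they had a median log2 fold change of 0.09. MT-CO2 had 0.58 (SE 0.30) and MT-CO1 -0.40 (SE 0.29). Without the filter on low counts 1 was called higher and 1 lower, and without shCtrl replicate 2 the median was 0.43 with 1 called higher.

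All 30 complex IV assembly factors were tested, with a median log2 fold change of 0.17. Of them, 4 were called higher and 2 lower in shFOXK2, against 25.7% and 22.7% of all tested genes. COA8 (listed as APOPT1), which protects assembly under oxidative stress, rose by 1.37 (SE 0.29, edgeR adjusted p = 0.00169). LRPPRC, which stabilises mitochondrial messenger RNAs, rose by 1.00 (SE 0.29, adjusted p = 0.0115). HIGD1A (0.97) and COA7 (0.65), named after their values were seen, were the other 2. COA7 was also lost with the replicate block (0.66, adjusted p = 0.102), with DESeq2 (0.64) and without the filter (0.55). COX14 fell by 0.99 on the log2 scale (SE 0.32, adjusted p = 0.0197), and COX7A2L, which joins complex IV to complex III, fell by 0.78 (SE 0.24, adjusted p = 0.0176). Without shCtrl replicate 2 the calls of LRPPRC (0.61), COA7 (0.54), COX14 (-0.74) and COX7A2L (-0.54) were lost, and without shFOXK2 replicate 1 those of COA7 (0.58), COX14 (-0.73) and COX7A2L (-0.77). HIGD1A (0.64) and COA7 (0.69) were lost without shFOXK2 replicate 2. The GC offset ended the calls of HIGD1A (0.13) and COX14 (-0.64) and took COX7A2L to -1.50, and the A content offset those of COA7 and COX14 but raised the counts to 7 higher and 4 lower.

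The NDUFA genes of complex I share the name of NDUFA4 but not its enzyme. Of 12 tested, 1 was called higher and 0 lower by edgeR, against 25.7% and 22.7% of all tested genes. At an unadjusted p under 0.05, 3 were higher and 1 lower, and with DESeq2 1 and 0. The median log2 fold change of the 12 was 0.24. NDUFA5, a subunit of the peripheral arm, rose by 0.82 (SE 0.28, edgeR adjusted p = 0.0260). Its direction turned with the offsets, to -0.07 on A content and -0.29 on GC content, and its call was lost without the filter, without shCtrl replicate 2 (0.68) and without shFOXK2 replicate 2 (0.54). With the A content offset 5 of the 12 were called higher.

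C15orf48 is known as an inflammation-induced gene, and 30 such genes were counted beside it. This list was written with earlier results of these data in view, so its direction is not independent evidence. All 30 were called lower in shFOXK2, against 22.7% of all tested genes, with a median log2 fold change of -4.98. CXCL6, a neutrophil-attracting chemokine, went from 1482 and 1056 counts to 2 and 0, with a log2 fold change of -9.90 (SE 0.54; edgeR, adjusted p = 2.19e-07). SAA2, an acute-phase protein, had 3799 and 2591 counts against 0 and 8, and -9.37 (SE 0.54, adjusted p = 2.19e-07). At the other end NFKB1, which encodes a subunit of NF-kB, fell by 1.14 on the log2 scale. The C15orf48 value of -9.58 was of the same size as those of CXCL6 and SAA2, all of which rest on 0 to 8 counts in shFOXK2. Their order turned with the library left out: without shFOXK2 replicate 1 they were -13.50, -13.28 and -8.54, and without shFOXK2 replicate 2 they were -8.50, -8.84 and -14.52. Requiring 10 counts or more in each library removes genes that fell to few counts, and 17 of the 30 were then tested. All 17 were called lower, and their median was -3.09.

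NDUFA4L2 is known as a HIF-induced gene, and the list of 26 HIF targets and HIF genes went down in part. This list too was chosen with earlier results of these data known, so its direction is not independent evidence. Of the 26, 16 were called lower and 0 higher by edgeR, against 22.7% and 25.7% of all tested genes. At an unadjusted p under 0.05 and with DESeq2, 0 were higher as well. The median log2 fold change of the 26 was -1.16. CCNG2, a cyclin-like inhibitor of proliferation, fell by 3.05 on the log2 scale (SE 0.36, edgeR adjusted p = 2.74e-05), from 50.01 to 5.96 CPM. CA9, a carbonic anhydrase that is often read as a mark of hypoxia, went from 69 and 63 counts to 9 and 8, or -2.71 on the log2 scale (SE 0.45, adjusted p = 0.000317). HIF1A, named after its values were seen, fell by 1.38 (SE 0.30, adjusted p = 0.00215), from 14103 and 5179 counts to 2910 and 2946. It was called under every alternative run, at -0.86 without shCtrl replicate 1, -1.79 without shCtrl replicate 2 and -1.94 with the A content offset. The glycolytic enzymes ENO1 and ALDOA, also on the list, did not pass the test at -0.16 and 0.04. NDUFA4L2 had too few counts in shCtrl to show a fall.

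**Figure D5:**
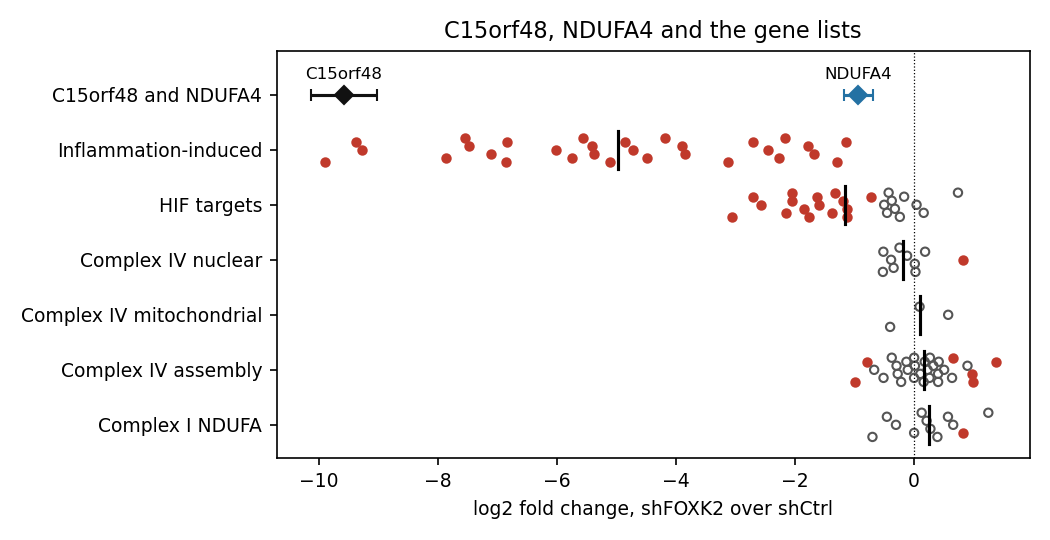
Log2 fold change, shFOXK2 over shCtrl, of C15orf48 and NDUFA4 (diamonds with 1 SE) and of the tested genes of 6 lists. Filled red points have an edgeR adjusted p under 0.05, open points do not, and black bars are medians: -4.98 for inflammation-induced genes, -1.16 for HIF targets and between -0.18 and 0.24 for the complex IV and complex I lists.

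The genes whose log2 CPM over the 4 libraries lay nearest to C15orf48, by Euclidean distance, were CXCL6 at 0.52, OR2I1P at 1.00, EHF at 2.25, IL6 at 2.60 and CSF2 at 2.64. CXCL6, IL6 and CSF2 are also in the inflammation list. The nearest genes were picked on these same values, and the list was written with earlier results known. Their overlap is therefore not independent evidence. IL6, an inflammatory cytokine, had 491 and 368 counts against 6 and 0. CSF2, a growth factor of myeloid cells, had 591 and 512 against 13 and 1. EHF, an epithelial ETS factor, had 1333 and 457 against 4 and 4. OR2I1P had 1622 and 1377 counts against 1 and 1, and overlaps UBD by 2259 bases on chromosome 6. The row for UBD held 3, 6, 0 and 0 counts, so the reads at this place cannot be assigned to one of the pair.

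The genes nearest to NDUFA4 lay closer, at distances of 0.23 to 0.28: SLC39A1, a zinc transporter gene, DNM2, TMED9, KDELR1 and NECTIN2. Their log2 fold changes lay between -1.07 and -0.82. None of the 5 is on the complex IV or complex I lists. The genes nearest to NDUFA4L2 (AC079250.1, LKAAEAR1, MEIG1, AC105219.4 and AP002840.2) lay at 1.67 to 1.90 and had from 1 to 15 counts in a library, so their likeness is mainly that of low levels.

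Genes on either side of each member were read to see whether the differences reached along the chromosome. Of the 5 nearest protein-coding genes on each side of the 3 members, 22 were tested. Of these, 5 were called lower and 4 higher, against 22.7% and 25.7% of all tested genes. At the C15orf48 locus the nearest upstream gene, SPATA5L1, lies 9.16 kb away and stood at -0.48 on the log2 scale (SE 0.29; edgeR, adjusted p = 0.197). GATM, a creatine synthesis enzyme gene 28.3 kb away, had 153 and 99 counts against 51 and 52, and -1.02 (SE 0.34, adjusted p = 0.0242), a call lost without either shCtrl library and without shFOXK2 replicate 2 (values from -1.09 to -0.90). SLC30A4, a zinc transporter gene 30.8 kb downstream, had -0.89 (SE 0.41, adjusted p = 0.0919), from 219 and 67 counts against 62 and 60. It was -0.17 without shCtrl replicate 1, and it passed without shCtrl replicate 2 (-1.36), without shFOXK2 replicate 1 (-1.10), without the filter (-0.99) and with the GC offset (-1.29). SHF (-0.77) and BLOC1S6 (1.13) were called at 229 and 138 kb. SHF was lost without shCtrl replicate 2 (-0.66) or shFOXK2 replicate 1 (-0.51), with the A offset (-0.38), the GC offset (-0.62), the replicate block (-0.79), library size alone (-0.72) and the stricter filter (-0.72). BLOC1S6 was lost without shCtrl replicate 2 (0.64) and with the GC offset (0.41), and was 1.85 without shCtrl replicate 1 and 0.67 with the A offset. None of these values came near the -9.58 of C15orf48.

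Next to NDUFA4, PHF14, a chromatin reader gene 33.2 kb away on the side of higher coordinates, went from 972 and 426 counts to 2213 and 3010, or 2.19 on the log2 scale (SE 0.28; edgeR, adjusted p = 5.13e-05). It moved opposite to NDUFA4, and was 1.21 with the A content offset, still past the test. THSD7A (2.02) and ICA1 (-1.25) were called at 430 and 2669 kb, THSD7A at 1.28 without shFOXK2 replicate 2. Around NDUFA4L2, SHMT2, a mitochondrial serine enzyme gene that overlaps its end, had -0.50 (SE 0.24, adjusted p = 0.109) and passed only without shCtrl replicate 1 (-0.74), while it was -0.26 without shCtrl replicate 2, -0.16 with the A offset and -0.19 with the GC offset. STAC3, 2.74 kb away, had 10 and 5 counts against 38 and 35, and 2.54 (SE 0.48, adjusted p = 0.000802). NXPH4, 8.45 kb away, had 0.36, and R3HDM2, 13.0 kb away, had 0.13, neither past the test. LRP1, a large endocytic receptor gene 21.5 kb away, fell by 2.87 (SE 0.26, adjusted p = 3.89e-06). NAB2 (-0.79, adjusted p = 0.0440) was lost without shCtrl replicate 2 (-0.62), without shFOXK2 replicate 2 (-0.68), with the replicate block and with either offset.

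Markers of cell types were read in every library beside the C15orf48 result. Over all tested genes 22.7% were called lower, and the calls in each marker list are read against this share. Of 9 epithelial and ovarian carcinoma markers 8 were tested and 3 were called lower, CDH1, MUC16 and PAX8. Their summed level ran from 4108 to 5474 CPM in shCtrl and from 4093 to 5307 CPM in shFOXK2, most of it keratins. E-cadherin (CDH1) had 459 and 260 counts against 13 and 24, and MUC16, which carries the CA125 antigen, 397 and 145 against 0 and 8. WT1, often used for serous ovarian carcinoma, had 0 to 2 counts in every library. The 6 leukocyte markers summed to 18.2 to 22.7 CPM in shCtrl and 9.56 to 9.72 in shFOXK2, nearly all of it CD14, the 1 tested, which was called lower (-1.14, adjusted p = 0.00566), with PTPRC at 0 in both shCtrl libraries and at 3 and 0 counts in shFOXK2. The 5 fibroblast markers summed to 18.9 to 20.4 CPM in shCtrl and 13.5 to 16.4 CPM in shFOXK2, most of it COL1A1. COL1A1 was expressed in both groups, with 324 and 215 counts against 226 and 229. It did not pass the test, with a log2 fold change of 0.03. COL1A2 and DCN had 0 counts in shCtrl, and 1 of the 2 tested markers, PDGFRB, was called lower. The 4 endothelial markers summed to 7.72 to 10.6 CPM in shCtrl and 0.633 to 2.03 CPM in shFOXK2, with KDR at 0 in shCtrl. The 2 that were tested, PECAM1 and CDH5, were called lower. The part of these marker changes in the C15orf48 result was not tested.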

How the data were processed

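Polyadenylated RNA of 4 OVCAR5 libraries was sequenced by the authors (NEBNext Ultra II kit, single-end reads of 50 bases, Illumina), aligned to hg38 with STAR 2.5.2 and counted with HTSeq. The deposited files hold these raw counts for each gene symbol, 1 file per library, and were not normalized. The HTSeq version, annotation and strand setting are not given in the sources used here. Groups and replicate numbers came from the sample titles.

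Counts were filtered with filterByExpr, scaled by TMM and compared with the 2-sided quasi-likelihood test of edgeR 4.0.16 (R 4.3.3), with p-values adjusted by Benjamini-Hochberg across the 16417 genes tested and called under 0.05. An adjusted p without another tool named is from this fit, and the SE is the absolute log2 fold change over the square root of F. With 2 libraries a group, exact permutation cannot reach 0.05, so p-values rest on variance shared between genes. In a simulation that changed 200 of 16417 genes, the test recovered 22.7%, 78.7% and 92% of changes of 1, 2 and 4 log2 units. Of the simulated calls 3.17% were false. In the data 48.4% of genes were called, far more than were changed there, so these shares may not hold for these calls. The members, the gene lists, the markers and the alternatives were chosen with earlier results of these data known. Genes were named by rule: the members, MIR147B, NDUFA4 pseudogenes, FOXK2, the 2 largest called rises and falls of each list, neighbouring genes (those called or within 50 kb) and the 5 nearest patterns of each member. Genes outside this rule (COA7, HIGD1A, HIF1A, ENO1, ALDOA, NFKB1, other complex IV subunits and the markers) were named after their values were seen.

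Transcript lengths, composition and positions came from GENCODE v44 on hg38, matched for 37219 symbols (65.7%) and for 88.4% of tested genes. The RefSeq tables on GRCh38.p14 gave microRNA and promoter sequences of all 3 members, and no protein sequences were used here. Alternatives were DESeq2 1.42.0 (Wald test, size factors), library size alone, no filter, at least 10 counts in every library, a replicate block, lowess offsets on A or GC content (span 0.2) and leaving out each library. A block with crossed numbers was added after seeing the data.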

Additional observations from a re-analysis of the deposited data

How the results depend on the processing

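C15orf48 and NDUFA4 were lower in shFOXK2 under every alternative in which they were fitted; with at least 10 counts in every library C15orf48 is removed by construction. For C15orf48 the log2 fold change was -8.65 with a prior count of 2 and ran from -13.50 to -8.50 with 1 library left out. For NDUFA4 it was -1.55 with the GC content offset and ran from -1.19 to -0.69 with 1 library left out. Gene by gene, log2 fold changes moved by a median of 0.17 under the A content offset, 0.13 under the GC content offset and -0.10 without a filter, and the median over the genes each fit tested was 0.07, 0.07 and 0.43, against 0.04. With 1 library left out NDUFA4L2 ran from -0.74 to 1.06, so its direction rests on single libraries of few counts. With summed exon length the shares in shCtrl were 37.0% for C15orf48 and 63.0% for NDUFA4.

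Same-numbered libraries of the groups did not deviate together (correlation -0.11 over genes) and share only a number. The replicate block gave 7270 called genes against 7940, C15orf48 at -9.58 and NDUFA4 at -0.92, and 3 neighbouring genes called lower instead of 5. With crossed numbers in the block 8350 genes were called, 3928 lower and 4422 higher.

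Library size alone and at least 10 counts in every library also gave 3 neighbouring genes called lower, and leaving out 1 library gave 3 to 5. Complex IV nuclear subunits had 2 called higher under the A content offset (blocked or not), and 0 to 1 higher and 0 to 2 lower with 1 library left out. The mitochondrial subunits had 1 higher and 1 lower without a filter, and with 1 library left out 0 to 1 higher and a median of -0.22 to 0.43. Assembly factors had 7 higher and 4 lower under the A content offset, 8 and 5 once blocked, and with 1 library left out 2 to 4 higher, 0 to 3 lower and a median of 1.55e-05 to 0.25. Complex I NDUFA genes had 0 higher and 1 lower without a filter, 5 and 1 under the A content offset, 5 and 2 once blocked, 3 higher with the GC content offset, and 0 to 3 higher and 0 to 2 lower with 1 library left out. NDUFA5 turned to -0.069 under the A content offset, -0.077 once blocked and -0.29 with the GC content offset. When each library needed 10 counts, all 17 inflammation-induced genes still tested were called lower, with a median of -3.09. The median of this list was -5.08 without a filter and -5.57 to -4.90 with 1 library left out. The HIF list ran from -1.36 to -0.87. Causes were not tested, except that stricter filters test fewer genes. With as few counts as NDUFA4L2 had in shCtrl, a fall could not be seen at this depth.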
